A study of Mus musculus with 9 samples.

Results

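The urea cycle and amino acid catabolism enzymes examined here are 9 genes: Cps1, Otc, Ass1, Asl and Arg1 of the urea cycle, Tat and Hpd of tyrosine breakdown, Tdo2 of tryptophan breakdown and Sardh of sarcosine breakdown. They were taken by symbol from a table of 53647 genes, and all 9 were found in it. The samples were Hepa 1-6 cells, a mouse hepatoma line grown as adherent cultures. A total of 3 samples had Usp5, which encodes a deubiquitinase, knocked out with a lentiviral CRISPR guide, 3 had Ythdf1, which encodes a reader of N6-methyladenosine in mRNA, knocked out with a CRISPR/Cas9/EGFP plasmid, and 3 carried a control guide. The study set out to compare both knockouts for genes that respond alike, immune genes above all. No drug or other treatment is named for any group. Per the labels, knockout cells were selected as single-cell clones, so that differences between clones and effects of the lost gene cannot be told apart. The knockouts also differ in how the guide was delivered, which cannot be told apart from the lost gene in their direct comparison. The same controls served both knockouts, so they cannot match both in delivery. Delivery may thus also differ in a comparison against control, where it could not be told apart from the lost gene. The labels number the samples but do not call them separate cultures or clones, so the p-values rest on sample-to-sample spread that may be technical.

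The urea cycle is the route by which hepatocytes turn ammonia into urea. Its mitochondrial part is carried out by Cps1, which makes carbamoyl phosphate from ammonia, and Otc, which joins it to ornithine to give citrulline. In the cytosol Ass1 joins citrulline to aspartate, Asl splits the product into arginine and fumarate, and Arg1 releases urea and returns ornithine. Ass1 and Asl also serve arginine synthesis in cells that make no urea. Tat starts the breakdown of tyrosine and is a classical glucocorticoid-induced liver gene, and Hpd follows it in that pathway. Tdo2 opens the tryptophan ring as the entry step of the liver's kynurenine pathway, and Sardh, a mitochondrial flavoenzyme, turns sarcosine into glycine.

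The libraries held between 24760877 and 42989715 counts, and 13661 genes had enough counts to be tested. Levels are given as CPM, counts scaled to a common library size by TMM, or as TPM, counts scaled by gene length and library, where genes of different length are compared within a group. Usp5 itself stood at 123, 113 and 110 CPM in the Usp5 knockout against 234, 224 and 184 CPM in the controls, and Ythdf1 stood at 49.2, 45.7 and 49.9 CPM in the Ythdf1 knockout against 190.2, 181 and 195 CPM in the controls. Control replicate 3 stood apart from the other controls: mitochondrially encoded genes took 5.91% of its counts against 2.33% and 2.32% in theirs. The knockout libraries had 3.67, 6.14 and 4.04% (Usp5) and 3.9, 4.96 and 3.51% (Ythdf1). Control replicate 3 lay within that range and the other controls below it. The chi-square per degree of freedom between control replicate 3 and the other controls was 129 and 112, against 13.3 between the latter. Pairs within the Usp5 knockout had 41 to 55.3, and pairs within the Ythdf1 knockout 3.38 to 24.5. Values without control replicate 3 are given where they differ. Across 15 secreted hepatocyte proteins the summed level was 7267 to 7764 CPM in the Usp5 knockout, 9539 to 10010 CPM in the Ythdf1 knockout and 4772 to 4937 CPM in the controls, with 5 of the 15 under 1 CPM in all 9 libraries. Of 11 tested, 2 rose in the Usp5 knockout and 10 in the Ythdf1 knockout, and 0 fell in either. Of all tested genes, 9.96% were called higher in the Usp5 knockout and 23.7% in the Ythdf1 knockout. The hepatocyte marker Alb averaged 935 CPM in the Usp5 knockout, 1244 CPM in the Ythdf1 knockout and 590 CPM in the controls. Of 13 macrophage and leukocyte markers, 9 were under 1 CPM in all 9 libraries, the pan-leukocyte gene Ptprc among them. Their summed level was 30.4 to 34.4 CPM in the Usp5 knockout, 58 to 66.1 CPM in the Ythdf1 knockout and 36.6 to 39.7 CPM in the controls. The summed level of 7 bile duct markers was 742 to 872 CPM in the Usp5 knockout, 464 to 515 CPM in the Ythdf1 knockout and 502 to 584 CPM in the controls, with 1 of them under 1 CPM in all 9 libraries. Of 6 tested bile duct markers, 5 rose in the Usp5 knockout (3 without Usp5 knockout replicate 2 or control replicate 1 or 2). In the Ythdf1 knockout 2 rose and 1 fell (4 and 1 without control replicate 3). Summed, 8 stellate and fibroblast markers reached 1084 to 1415 CPM in the Usp5 knockout and 1062 to 1290 CPM in the Ythdf1 knockout. The controls had 856 to 1268 CPM, and 5 of these 8 were under 1 CPM in all 9 libraries. The part of these marker genes in the members' results was not tested.

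The line thus expressed a part of the set: Ass1 and Asl were abundant, Tat and Sardh were low and changed in at least 1 knockout, and Cps1, Otc, Arg1, Tdo2 and Hpd were at or near 0 in all 9 libraries. Of the 9 members, 4 passed the filter on low counts, and Tat and Sardh passed it through the groups in which they are high, so that nothing is read from the share of these 4 that was called. Calls were made with edgeR's quasi-likelihood test at a p under 0.05 after Benjamini-Hochberg adjustment over all tested genes, and every adjusted p below comes from it. In the Usp5 knockout 1 member rose (Ass1), 2 fell (Tat and Sardh) and 1 did not pass (Asl), where 9.96% of all tested genes were called higher and 9.8% lower, 19.8% in all. In the Ythdf1 knockout 1 member rose (Ass1), 1 fell (Sardh) and 2 did not pass (Asl and Tat), where 23.7% of genes were called higher and 22.8% lower, 46.5% in all. Between the Usp5 and the Ythdf1 knockout 1 member was higher (Sardh) and 3 were lower (Ass1, Asl and Tat), where 23.3% of genes were called higher and 25.2% lower, 48.5% in all. Both knockouts were set against the same controls. In bulk RNA, fewer cells expressing a gene and less RNA per cell cannot be told apart.

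**Figure D1:**
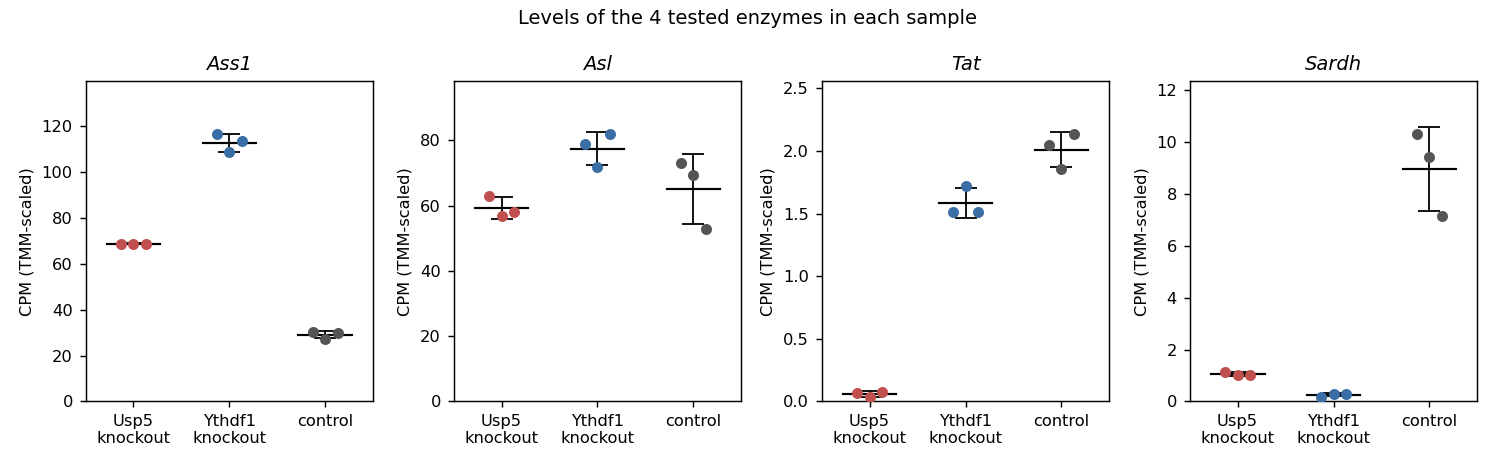
TMM-scaled CPM of the members with enough counts to be tested (Ass1, Asl, Tat and Sardh) in each of the 9 samples, with the mean and SD of each group of 3. Ass1 is higher in both knockouts than in the controls, Tat is near 0 in the Usp5 knockout, and Sardh is low in both knockouts.

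The promoters of the 3 members that rose or fell in a knockout are shown because their transcripts moved in different combinations across the same samples. Each window runs from 250 bases before to 50 bases after the start of the gene (RefSeq, GRCm38.p6), 5′ to 3′ on the gene's strand. They lie at chr2:31470020-31470319 (Ass1, plus strand), chr8:109990186-109990485 (Tat, plus strand) and chr2:27247254-27247553 (Sardh, minus strand). Capitals mark the E-box CACGTG.
Ass1: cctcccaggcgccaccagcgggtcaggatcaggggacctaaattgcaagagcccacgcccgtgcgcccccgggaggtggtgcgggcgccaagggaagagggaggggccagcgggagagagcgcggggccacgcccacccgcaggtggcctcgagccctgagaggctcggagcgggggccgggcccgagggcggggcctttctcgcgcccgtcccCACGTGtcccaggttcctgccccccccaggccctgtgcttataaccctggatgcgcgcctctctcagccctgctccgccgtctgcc
Tat: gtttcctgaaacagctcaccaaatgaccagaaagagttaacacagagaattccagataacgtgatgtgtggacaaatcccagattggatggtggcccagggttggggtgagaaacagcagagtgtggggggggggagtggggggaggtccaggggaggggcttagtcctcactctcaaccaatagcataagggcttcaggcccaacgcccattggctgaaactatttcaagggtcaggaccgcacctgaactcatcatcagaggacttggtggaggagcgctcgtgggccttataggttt
Sardh: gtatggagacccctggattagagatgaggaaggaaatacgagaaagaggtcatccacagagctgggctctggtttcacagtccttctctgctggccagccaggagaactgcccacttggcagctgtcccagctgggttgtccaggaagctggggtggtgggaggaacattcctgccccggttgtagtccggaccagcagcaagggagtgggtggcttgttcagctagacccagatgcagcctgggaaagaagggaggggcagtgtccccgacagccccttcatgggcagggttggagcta

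These windows differed in base composition: G and C made up 74% of the Ass1 window, 53.7% of the Tat window and 59% of the Sardh window. The letters searched on both strands were CACGTG (the E-box), TGATGNAA (the core of a C/EBP-ATF element), TTGCNNAA (a C/EBP core), CAAAGTCCA (an HNF4 core) and TATAAA (the TATA box). The E-box begins at position -36 from the start of Ass1 and was the only match in the 3 windows, while 7.15% of 32851 mouse promoter windows of 300 bases hold it. The other letters occur in 3.97% (TGATGNAA), 10.8% (TTGCNNAA), 0.475% (CAAAGTCCA) and 13.6% (TATAAA) of those windows. RefSeq windows were matched for 6 of the 9 members, and among the other 3 (Otc, Tdo2 and Hpd) the single match was TATAAA at position -229 of Tdo2. A match is a description of the letters in the window.

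Ass1 (ENSMUSG00000076441, chromosome 2), the argininosuccinate synthetase, was the member that rose in both knockouts. It stood at 68.8, 68.5 and 68.8 CPM in the Usp5 knockout, 116, 109 and 113 CPM in the Ythdf1 knockout, and 30.15, 27.4 and 29.9 CPM in the controls. The 3 groups do not overlap, and each group's samples lie close together. The means were 68.7 ± 0.192 CPM in the Usp5 knockout, 113 ± 3.89 CPM in the Ythdf1 knockout and 29.1 ± 1.54 CPM in the controls (SD, n = 3), so that the Ythdf1 knockout was highest and the controls lowest. Ass1 had a log2 fold change of 1.24 ± 0.0707 between Usp5 knockout and control, a 2.36-fold rise (SE; edgeR, adjusted p = 2.32e-06). For the Ythdf1 knockout it was 1.95 ± 0.0718, a 3.87-fold rise (edgeR, adjusted p = 1.21e-07). Between the Usp5 and the Ythdf1 knockout Ass1 was lower by a log2 fold change of -0.72 ± 0.0693, which puts the Usp5 knockout at 60.9% of the Ythdf1 knockout (edgeR, adjusted p = 2.8e-05). The summed hepatocyte proteins given above have the same order of groups as Ass1, and their part in these differences was not tested.

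Asl (ENSMUSG00000025533, chromosome 5), the lyase that acts on the product of Ass1, did not pass the test against control in either knockout. Its levels were 62.9, 56.6 and 57.9 CPM in the Usp5 knockout, 78.7, 71.8 and 81.8 CPM in the Ythdf1 knockout, and 73, 69.3 and 52.9 CPM in the controls. The range of the controls overlaps that of each knockout, and control replicate 3 is the lowest of all 9 samples. The knockouts themselves do not overlap. Against control its log2 fold change was -0.14 ± 0.116 for the Usp5 knockout (edgeR, adjusted p = 0.439) and 0.25 ± 0.116 in the Ythdf1 knockout (edgeR, adjusted p = 0.103). Without control replicate 3 the Usp5 knockout passed, at -0.27 (edgeR, adjusted p = 0.0339). Asl was lower in the Usp5 knockout than in the Ythdf1 knockout by a log2 fold change of -0.39 ± 0.117 (edgeR, adjusted p = 0.0195). That call was lost with library sizes alone in place of TMM (-0.33, adjusted p = 0.0637) and when 1 of 4 samples was left out: Usp5 knockout replicate 2 (adjusted p = 0.0917) or 3 (0.0535), or Ythdf1 knockout replicate 1 (0.0814) or 3 (0.0979).

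The balance of these neighbouring enzymes is described on a per-length scale, on which their ratio does not depend on library scaling. Ass1 averaged 75.3 ± 5.48 TPM and Asl 66.2 ± 5.21 TPM in the Usp5 knockout. In the Ythdf1 knockout Ass1 averaged 111 ± 2.14 TPM and Asl 78.2 ± 4.3 TPM, and in the controls Ass1 averaged 34.6 ± 1.62 TPM and Asl 79.4 ± 16 TPM (SD, n = 3). The ratio of Ass1 to Asl was 1.07, 1.18 and 1.16 in the Usp5 knockout, 1.45, 1.48 and 1.36 in the Ythdf1 knockout, and 0.404, 0.386 and 0.553 in the controls. All 6 knockout samples had more Ass1 than Asl transcript per length, and all 3 controls had less. The ratio is given as a description: with 3 samples a group, an exact two-sided permutation test cannot go below p = 0.1, so that it could not pass at 0.05 whatever the values. Among the tested genes, Ass1 lay above 82.9% in the Usp5 knockout, 89.1% in the Ythdf1 knockout and 65.6% in the controls. Asl lay above 80.6% of them in the Usp5 knockout, 84.2% in the Ythdf1 knockout and 83% in the controls.

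**Figure D2:**
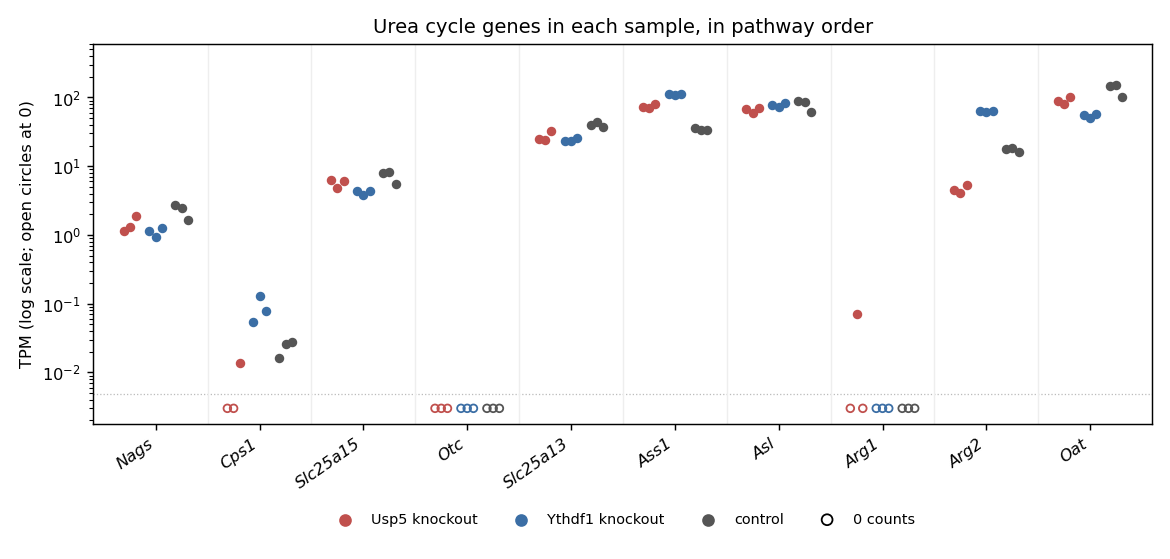
TPM (log axis) of the urea cycle members and of Nags, Slc25a15, Slc25a13, Arg2 and Oat in pathway order, 1 point per sample, with samples of 0 counts as open circles below the dotted line. Ass1 is above Asl in the samples of both knockouts and below it in the controls, Cps1 and Arg1 are at or near 0, and Otc has 0 counts in all 9 samples.

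The mitochondrial entry of the cycle and its cytosolic arginase were close to the detection limit. Cps1 (ENSMUSG00000025991, chromosome 1) had 0, 0 and 1 counts in the Usp5 knockout libraries, 5, 11 and 7 in the Ythdf1 knockout libraries and 2, 3 and 2 in the control libraries. Every Ythdf1 knockout library thus held more Cps1 counts than any other library, at levels far below 1 CPM. Summed over a group, this is 1 count or 0.0102 CPM without TMM scaling (95% exact interval 0.000259 to 0.0569) in the Usp5 knockout, 23 counts or 0.276 CPM (0.175 to 0.414) in the Ythdf1 knockout and 7 counts or 0.0658 CPM (0.0264 to 0.136) in the controls. The ratio of the Usp5 knockout to control was 0.155 with a 95% interval from 0.00345 to 1.21, and that of the Usp5 to the Ythdf1 knockout was 0.0371 with an interval from 0.0009 to 0.228. These intervals, and the limits that follow, cover counting error only.

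Otc (ENSMUSG00000031173, chromosome X) had 0 counts in all 9 libraries, 287725133 counts in all. A count of 0 over that depth allows up to 3 counts, or 0.0104 CPM. Arg1 (ENSMUSG00000019987, chromosome 10) had a single count, in Usp5 knockout replicate 2, and 0 counts in the other libraries. Both genes are at or under the detection limit in every group, and no fold is given for either.

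Arg2, the mitochondrial arginase found in many tissues besides liver, releases urea from arginine as Arg1 does, and its transcript moved in opposite directions in the knockouts. It stood at 3.55, 3.36 and 3.81 CPM in the Usp5 knockout, 55.5, 50.9 and 53.8 CPM in the Ythdf1 knockout, and 12.4, 12.8 and 12.1 CPM in the controls. The 3 groups are far apart and each is narrow. Arg2 fell by 1.80 ± 0.0886 on the log2 scale in the Usp5 knockout and rose by 2.10 ± 0.0812 in the Ythdf1 knockout (SE; edgeR, adjusted p = 1.06e-06 and 1.35e-07). On the per-length scale Arg2 averaged 4.65 TPM in the Usp5 knockout, 62.4 TPM in the Ythdf1 knockout and 17.5 TPM in the controls. Arg2 overlaps Vti1b on the opposite strand and the sources used here do not say whether reads were split by strand, so the values of both genes are uncertain. Vti1b had log2 fold changes of -0.24 in the Usp5 knockout and 0.25 in the Ythdf1 knockout and passed in neither (edgeR, adjusted p = 0.194 and 0.119). In the direct comparison of the Usp5 with the Ythdf1 knockout Vti1b passed at -0.48 (edgeR, adjusted p = 0.0081), where Arg2 had -3.90.

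Of 9 further urea cycle genes and carriers, 7 were tested. Of these, 0 rose, 2 fell (Arg2 and Slc25a13) and 5 did not pass in the Usp5 knockout. The Ythdf1 knockout had 2 that rose (Arg2 and Glud1), 4 that fell and 1 that did not pass. These are 28.6% of the 7 in the Usp5 knockout, against 19.8% of all tested genes, and 85.7% in the Ythdf1 knockout, against 46.5%. Slc25a13, the carrier that exports the aspartate used by Ass1, averaged 40.2 ± 3.7 CPM in the Usp5 knockout, 40 ± 2.14 CPM in the Ythdf1 knockout and 55.2 ± 2.69 CPM in the controls (SD, n = 3). It fell by 0.46 in the Usp5 knockout and by 0.47 in the Ythdf1 knockout on the log2 scale (edgeR, adjusted p = 0.00499 and 0.00178). Nags, whose product activates Cps1, averaged 1.54 CPM in the Usp5 knockout, 1.35 CPM in the Ythdf1 knockout and 2.27 CPM in the controls, with log2 fold changes of -0.58 in the Usp5 knockout (edgeR, adjusted p = 0.107) and -0.76 in the Ythdf1 knockout (adjusted p = 0.0259, a call lost when Ythdf1 knockout replicate 1 or 2 or control replicate 1 or 2 was left out). The ornithine carrier Slc25a15 had log2 fold changes of -0.21 in the Usp5 knockout (edgeR, adjusted p = 0.35) and -0.51 in the Ythdf1 knockout (adjusted p = 0.017, a call lost without control replicate 1 or 2).

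Tat (ENSMUSG00000001670, chromosome 8), the tyrosine aminotransferase, was close to 0 in the Usp5 knockout and fell there against both other groups. Its raw counts were 3, 1 and 2 in the Usp5 knockout libraries, 41, 45 and 40 in the Ythdf1 knockout libraries and 92, 80 and 53 in the control libraries. In CPM these are 0.0705, 0.035 and 0.077 in the Usp5 knockout, 1.52, 1.72 and 1.51 in the Ythdf1 knockout, and 2.04, 1.86 and 2.13 in the controls. The lowest sample outside the Usp5 knockout is far above the highest sample inside it, and the Ythdf1 knockout samples lie just below the controls without overlap. Means were 0.0608 ± 0.0226 CPM in the Usp5 knockout, 1.58 ± 0.121 CPM in the Ythdf1 knockout and 2.01 ± 0.141 CPM in the controls (SD, n = 3). Against control, the log2 fold change in the Usp5 knockout was -4.94 ± 0.3 (SE; edgeR, adjusted p = 3.72e-06). For the Ythdf1 knockout it was -0.34 ± 0.196 and did not pass (edgeR, adjusted p = 0.176). The direct comparison of the Usp5 with the Ythdf1 knockout gave -4.60 ± 0.309 (edgeR, adjusted p = 2.79e-06). Even in the controls Tat was a low transcript, at 1.7 TPM, above 18.4% of tested genes. At 0.048 TPM in the Usp5 knockout it lay above 0.739% of them.

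Hpd (ENSMUSG00000029445, chromosome 5), the dioxygenase that acts after Tat, had a single count, in Ythdf1 knockout replicate 2, and 0 in the other libraries. The annotation of another build places it over Psmd9 and the noncoding Gm26745. Tdo2 (ENSMUSG00000028011, chromosome 3), the tryptophan dioxygenase, had 1 count each in control replicates 1 and 2 and 0 elsewhere. Neither gene supports a comparison at this depth.

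Sardh (ENSMUSG00000009614, chromosome 2), the sarcosine dehydrogenase, fell in both knockouts, and further in the Ythdf1 knockout. Its raw counts were 49, 29 and 26 in the Usp5 knockout libraries, 5, 7 and 8 in the Ythdf1 knockout libraries and 463, 405 and 178 in the control libraries. Scaled, it stood at 1.15, 1.01 and 1 CPM in the Usp5 knockout, 0.185, 0.268 and 0.302 CPM in the Ythdf1 knockout, and 10.3, 9.4 and 7.17 CPM in the controls. The groups are separated in the order control, Usp5 knockout, Ythdf1 knockout from high to low, and control replicate 3 is the lowest control. Sardh averaged 1.06 ± 0.0826 CPM in the Usp5 knockout, 0.252 ± 0.0603 CPM in the Ythdf1 knockout and 8.95 ± 1.61 CPM in the controls (SD, n = 3). Relative to control, the log2 fold change was -3.08 ± 0.191 for the Usp5 knockout, which leaves 11.9% of the control level (SE; edgeR, adjusted p = 3.88e-06). For the Ythdf1 knockout it was -5.14 ± 0.238, which leaves 2.84% (edgeR, adjusted p = 4.37e-07). Sardh was 4.18-fold higher in the Usp5 knockout than in the Ythdf1 knockout, a log2 fold change of 2.06 ± 0.272 (edgeR, adjusted p = 0.000192). On the per-length scale it averaged 0.816 TPM in the Usp5 knockout, 0.176 TPM in the Ythdf1 knockout and 7.56 TPM in the controls. The antisense gene Sardhos, which overlaps it, had 0 counts in all 9 libraries.

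**Figure D3:**
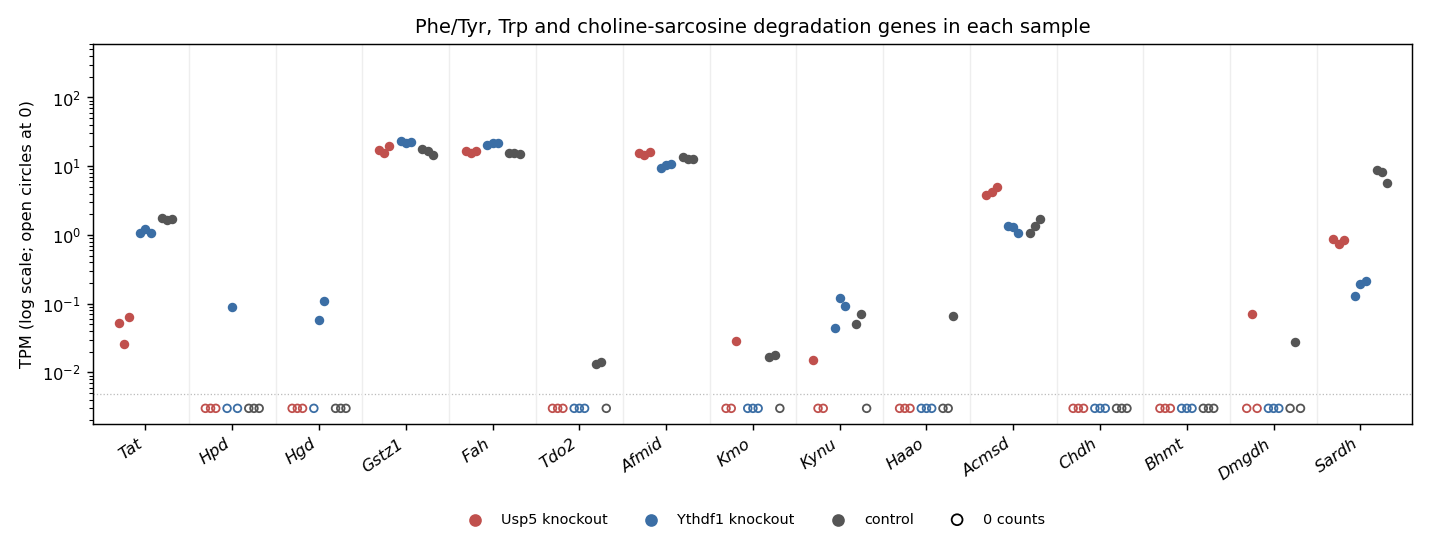
TPM (log axis) of Tat, Hpd, Tdo2 and Sardh beside other genes of phenylalanine, tyrosine, tryptophan and sarcosine breakdown, 1 point per sample, with samples of 0 counts as open circles below the dotted line. Tat is lowest in the Usp5 knockout, Sardh is lowest in the Ythdf1 knockout, and Hpd and Tdo2 have 0 counts in most samples.

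Ass1, Tat and Sardh thus moved in 3 different patterns over the same samples. Ass1 was raised in both knockouts and more in the Ythdf1 knockout, Sardh was lowered in both and more in the Ythdf1 knockout, and Tat was lowered in the Usp5 knockout and did not pass in the other. The genes whose log2 CPM was most like each of them over the 9 samples were sought among 9464 genes with a mean of at least 5 CPM. For Ass1 these were Irak2 (Pearson r = 0.997), Bmp4 (r = 0.993) and Lbp (r = 0.991). For Tat they were Nrp2 (r = 0.998), C3 (r = 0.996) and Map3k14 (r = 0.995), and for Sardh they were Slc38a4 (r = 0.992), Phlpp2 (r = 0.987) and Klhl11 (r = 0.985). Slc38a4, which encodes an amino acid transporter of liver, averaged 11.2 CPM in the Usp5 knockout, 5.47 CPM in the Ythdf1 knockout and 37.7 CPM in the controls. The 9 points are 3 groups of 3 from shared libraries, so that a high r says only that 2 genes have like group levels.

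The members were set beside a wider list of amino acid catabolism genes: 132 listed, 130 in the table and 97 tested. Among them 7 rose and 12 fell in the Usp5 knockout, 19.6% in all, which is near the 19.8% of all tested genes, and the median log2 fold change was -0.08 against -0.01 for all tested genes. The number called here moved between 9 (without control replicate 2) and 32 (without control replicate 3), and was 12 and 11 without Usp5 knockout replicate 1 and 2. For the Ythdf1 knockout 26 rose and 22 fell, 49.5% in all against 46.5% of all tested genes, with a median of -0.01 for the list and 0.02 for all tested genes. Between the Usp5 and the Ythdf1 knockout 20 were higher and 31 lower, 52.6% in all against 48.5%. Some of these genes were barely expressed: 39 of the 130 were under 1 CPM in all 9 libraries and 8 of those had 0 counts throughout. Of the 9 members, 5 were under 1 CPM in all 9 libraries. The list had 97 of 130 genes with enough counts to be tested, where the whole table had 13661 of 53647.

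**Figure D4:**
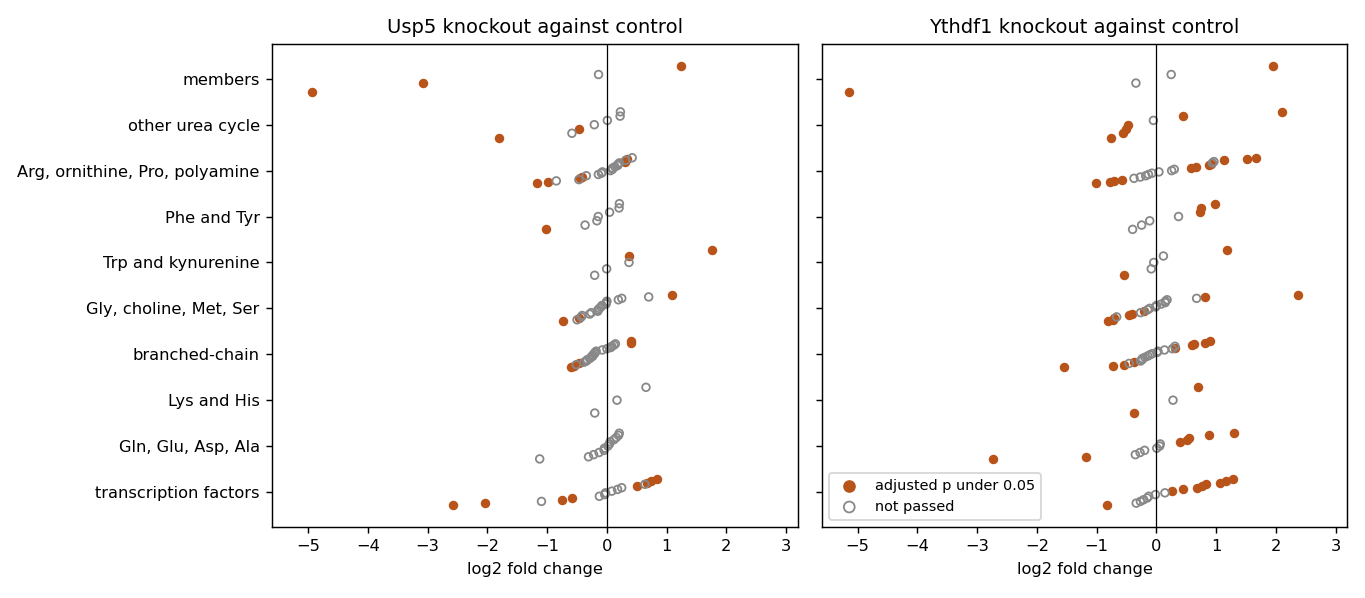
Log2 fold change of every tested gene of each list (1 point per gene), in the Usp5 knockout against control on the left and in the Ythdf1 knockout against control on the right, with filled points for an adjusted p under 0.05 and open points for the rest. The members have 3 filled points in the Usp5 knockout and 2 in the Ythdf1 knockout, and the wider lists have more filled points in the Ythdf1 knockout, 48 of 97 (49.5%) without the transcription factors, where 46.5% of all tested genes passed, against 19 of 97 (19.6%) in the Usp5 knockout, where 19.8% of all tested genes passed.

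The genes that handle the arginine made by Ass1 and Asl were followed as a list of 21 tested arginine, ornithine, proline and polyamine enzymes. Against control, 2 rose and 4 fell in the Usp5 knockout, 28.6% in all against 19.8% of all tested genes. The number called moved between 2 and 10 when single samples were left out (2 without control replicate 2, 3 without Usp5 knockout replicate 1 or 2, and 10 without control replicate 3). Aldh4a1, which oxidises the intermediate that proline and ornithine share, fell by 1.16 and Slc7a2, an arginine transporter gene, by 0.99 on the log2 scale (edgeR, adjusted p = 0.000735 and 0.00292). Slc7a2 was low, at 1.27 CPM in the Usp5 knockout and 2.53 CPM in the controls. Slc7a1, another arginine transporter gene of this list, averaged 272 CPM in the Usp5 knockout, 560 CPM in the Ythdf1 knockout and 254 CPM in the controls. Its log2 fold changes were 0.10 in the Usp5 knockout and 1.14 in the Ythdf1 knockout (edgeR, adjusted p = 0.432 and 6.84e-06). The Ythdf1 knockout had 7 that rose and 4 that fell, 52.4% in all against 46.5% of all tested genes. Pycr1 and Aldh18a1, which make proline from glutamate, rose there by 1.68 and 1.52 on the log2 scale (edgeR, adjusted p = 1.4e-06 and 4.37e-07). Odc1, the entry enzyme of polyamine synthesis, rose by 0.91, and Oat, which takes ornithine out of the cycle, fell by 1.01 (edgeR, adjusted p = 1.91e-05 and 0.000143). In the Usp5 knockout Pycr1 and Aldh18a1 also rose, by 0.33 and 0.31, and Oat also fell, by 0.42 (edgeR, adjusted p = 0.033, 0.0105 and 0.0341). These Usp5 knockout calls were lost in 11 (Pycr1), 4 (Aldh18a1) and 10 (Oat) of 18 alternatives. Odc1 did not pass in the Usp5 knockout, at 0.14 (edgeR, adjusted p = 0.234).

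Around Tat and Hpd, 7 genes of phenylalanine and tyrosine breakdown were tested. In the Usp5 knockout 0 rose and 1 fell (Gch1), with 2 lower when control replicate 3 was left out, and in the Ythdf1 knockout 3 rose and 0 fell. Called shares were thus 14.3% and 42.9%, against 19.8% and 46.5% of all tested genes. Gch1, which opens the synthesis of the cofactor tetrahydrobiopterin, averaged 5.51 ± 1.35 CPM in the Usp5 knockout, 22 ± 2.2 CPM in the Ythdf1 knockout and 11.1 ± 1.98 CPM in the controls (SD, n = 3). It fell by 1.02 in the Usp5 knockout and rose by 0.98 in the Ythdf1 knockout on the log2 scale (edgeR, adjusted p = 0.00345 and 0.00135). Fah, the enzyme of the last step, rose by 0.74 in the Ythdf1 knockout (edgeR, adjusted p = 9.39e-05), with 0.21 in the Usp5 knockout (adjusted p = 0.109).

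Around Tdo2, 5 genes of the tryptophan and kynurenine pathway were tested. In the Usp5 knockout 2 rose (Acmsd and Afmid) and 0 fell, with 1 of these left without Usp5 knockout replicate 1 or control replicate 2, and in the Ythdf1 knockout 1 rose and 1 fell. That is 40% of the 5 in each knockout, against 19.8% (Usp5) and 46.5% (Ythdf1) of all tested genes. Acmsd, which diverts the pathway away from NAD synthesis, averaged 5.17 ± 0.364 CPM in the Usp5 knockout, 1.65 ± 0.192 CPM in the Ythdf1 knockout and 1.54 ± 0.434 CPM in the controls (SD, n = 3), a rise of 1.77 on the log2 scale in the Usp5 knockout (edgeR, adjusted p = 0.000244). Its log2 fold change in the Ythdf1 knockout was 0.12 (edgeR, adjusted p = 0.684). Of the other enzymes that can open the tryptophan ring, Ido1 had 0 counts in all 9 libraries, and Ido2 had 30 counts in the Usp5 knockout, 13 in the Ythdf1 knockout and 31 in the controls, too few to be tested.

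Around Sardh, 19 genes of glycine, choline, methionine and serine breakdown were tested. There 1 rose and 2 fell in the Usp5 knockout, with a single call left (1 lower) when any of 5 samples was left out: Usp5 knockout replicate 2 or 3, Ythdf1 knockout replicate 1, or control replicate 1 or 2. The Ythdf1 knockout had 2 that rose and 6 that fell (2 and 3 without control replicate 2). Of the 19, 15.8% were called in the Usp5 knockout and 42.1% in the Ythdf1 knockout, near the 19.8% and 46.5% of all tested genes. Dmgdh, which makes sarcosine from dimethylglycine, had 2 counts in the Usp5 knockout, 0 in the Ythdf1 knockout and 1 in the controls. Gnmt, which makes it from glycine, averaged 0.891 CPM in the Usp5 knockout, 0.441 CPM in the Ythdf1 knockout and 0.404 CPM in the controls. It was the gene of this list that rose in the Usp5 knockout, by 1.10 ± 0.322 on the log2 scale (SE; edgeR, adjusted p = 0.037), a call lost in 13 of 17 alternatives, among them leaving out any sample but Ythdf1 knockout replicate 2. Chdh and Bhmt, upstream of dimethylglycine, had 0 counts in all 9 libraries. Cth, which releases cysteine from cystathionine, averaged 3.96 ± 0.77 CPM in the Usp5 knockout, 34.3 ± 1.82 CPM in the Ythdf1 knockout and 6.53 ± 1.79 CPM in the controls (SD, n = 3), a rise of 2.37 on the log2 scale in the Ythdf1 knockout (edgeR, adjusted p = 1.61e-05).

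**Figure D5:**
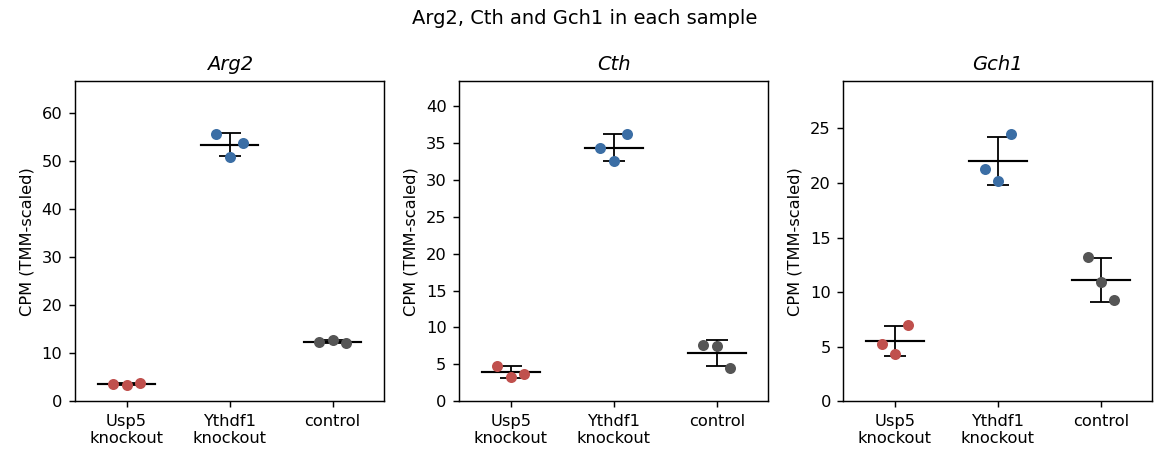
TMM-scaled CPM of Arg2, Cth and Gch1, which were called lower in the Usp5 knockout and higher in the Ythdf1 knockout, per sample with the mean and SD of each group. The Ythdf1 knockout samples are the highest for each gene, while the Usp5 knockout and control samples overlap for Cth, whose call in the Usp5 knockout was lost in 7 of 18 alternatives.

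Of 22 tested genes of branched-chain amino acid breakdown, 2 rose and 3 fell in the Usp5 knockout and 5 rose and 4 fell in the Ythdf1 knockout. Called shares were thus 22.7% and 40.9%, near the 19.8% and 46.5% of all tested genes. The Usp5 count of 5 moved to 9 without control replicate 3, to 3 without Usp5 knockout replicate 1 or 3, and to 2 without Usp5 knockout replicate 2 or control replicate 2. Of 13 tested genes of glutamine, glutamate, aspartate and alanine metabolism, 0 were called in the Usp5 knockout (1 lower without Usp5 knockout replicate 3 or control replicate 3), and 5 rose and 2 fell in the Ythdf1 knockout. Of 3 tested genes of lysine and histidine breakdown, 0 were called in the Usp5 knockout (2 lower without control replicate 3), and 1 rose and 1 fell in the Ythdf1 knockout, where 0 calls were left without Ythdf1 knockout replicate 1 or 3 or control replicate 2, and 1 without control replicate 3. The called shares in the Ythdf1 knockout were 53.8% of the 13 and 66.7% of the 3, against 46.5% of all tested genes.

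Transcription factors known to act on genes of this kind were listed as well, and 16 were tested. In the Usp5 knockout 4 rose and 4 fell, and in the Ythdf1 knockout 8 rose and 1 fell. These are 50% of the 16 in the Usp5 knockout, against 19.8% of all tested genes, and 56.2% in the Ythdf1 knockout, against 46.5%. Hnf4a, a hepatocyte factor, averaged 308 ± 7.21 CPM in the Usp5 knockout, 294 ± 5.24 CPM in the Ythdf1 knockout and 216 ± 6.5 CPM in the controls (SD, n = 3), and rose by 0.51 on the log2 scale in the Usp5 knockout and by 0.44 in the Ythdf1 knockout (edgeR, adjusted p = 0.000562 and 0.000521). Nr5a2, a liver nuclear receptor, fell by 2.58 in the Usp5 knockout and by 0.82 in the Ythdf1 knockout (edgeR, adjusted p = 3.88e-06 and 0.00127). Cebpb, a factor of the C/EBP family, rose by 1.28 in the Ythdf1 knockout (edgeR, adjusted p = 3.7e-05), with -0.02 in the Usp5 knockout (adjusted p = 0.921). Nr3c1, the glucocorticoid receptor through which Tat is known to be induced, averaged 179.7 ± 23.1 CPM in the Usp5 knockout, 137 ± 13.2 CPM in the Ythdf1 knockout and 159 ± 12.9 CPM in the controls (SD, n = 3), with log2 fold changes of 0.18 in the Usp5 knockout and -0.21 in the Ythdf1 knockout (edgeR, adjusted p = 0.285 and 0.143). Between the knockouts Nr3c1 was higher in the Usp5 than in the Ythdf1 knockout, by 0.39 ± 0.112 on the log2 scale (SE; edgeR, adjusted p = 0.0151). That call was lost without Usp5 knockout replicate 3 or Ythdf1 knockout replicate 1 or 3. The part of Nr3c1 and the other listed factors in the levels of Tat and the other members was not tested.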

How the data were processed

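Poly(A) RNA libraries of 9 Hepa 1-6 samples were analysed (3 Usp5 knockout, 3 Ythdf1 knockout, 3 control). The authors deposited 1 table of estimated counts per gene, written as whole numbers, with a gene length. The submitters' processing notes list fastp 0.23.2, STAR 2.7.10a, Salmon 1.9.0 and GRCm39 but no roles, and no source used here gives the use of strand. Columns were matched to samples by description and groups were taken from titles.

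The test was edgeR 4.0.16's quasi-likelihood test (R 4.3.3; TMM, filterByExpr, 1 fit of all 9 samples by group, Benjamini-Hochberg over 13661 of 53647 genes, threshold 0.05). CPM used TMM-scaled library sizes. TPM used the deposited lengths and no TMM scaling, so it serves to compare genes within a group. Where TPM of 1 gene is printed for several groups, it is a description, and the fold changes come from the edgeR fit. Totals of 24760877 to 42989715 counts set the precision; a count of 0 allows up to 3 counts. Overlapping genes and promoter windows came from a GRCm38 annotation and RefSeq on GRCm38.p6, used for names, overlaps and the sequences shown.

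The members and gene lists were chosen with earlier results of these data known. Named genes were all members; per list, up to 2 called genes per direction and knockout with at least 1 CPM; and set genes given as values (Nags, Slc25a15, Slc25a13, Arg2, Ido1, Oat, Odc1, Fah, Dmgdh, Gnmt and 5 transcription factors), of which those the members bear on are printed; results for some genes are not reported here. Chdh, Bhmt, Ido2 and Slc7a1 were named after their values were seen, as were the marker genes. Likeness was Pearson's r of log2 CPM (prior count 2). As alternatives, DESeq2 1.42.0, limma-voom (limma 3.58.1), RLE scaling, unscaled library sizes, other filters, a fit of only 2 groups, a replicate block, a stricter threshold and leaving out each sample were tried.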

Additional observations from a re-analysis of the deposited data

Results flagged for a closer look

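Asl, Arg2, Cth and Gch1 had fold changes of opposite sign in the knockouts. The direct comparison of the Usp5 with the Ythdf1 knockout passed for each. It tests whether the knockouts differ in level, and not whether each moved away from control in an opposite direction. It also passed for Ass1 and Sardh, which moved the same way in both knockouts. Arg2, the mitochondrial arginase, had a log2 fold change of -3.90 between the Usp5 and the Ythdf1 knockout (edgeR, adjusted p = 2.97e-09) and was called in opposite directions against control under all 18 alternatives. Gch1 had -2.00 (adjusted p = 2.14e-05) and was also called in opposite directions under all 18.

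Cth had a log2 fold change of -3.10 between the knockouts (edgeR, adjusted p = 2.32e-06). Its log2 fold change in the Usp5 knockout against control was -0.73 (adjusted p = 0.0298) with overlapping samples, and it was no longer called in a fit of only the 2 groups compared (adjusted p = 0.0828), at a threshold of 0.01, or without Usp5 knockout replicate 2 or 3, Ythdf1 knockout replicate 1, or control replicate 1 or 2. Asl had -0.39 between the knockouts (edgeR, adjusted p = 0.0195) and was called in neither knockout against control.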

How the results depend on the processing

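Ass1, Tat and Sardh kept their direction and their side of the threshold under all 18 alternatives in each comparison, with log2 fold changes against control of 1.15 to 1.26 (Ass1), -5.09 to -4.71 (Tat) and -3.21 to -2.96 (Sardh) in the Usp5 knockout, and 1.81 to 1.98 (Ass1), -0.48 to -0.30 (Tat, not called) and -5.32 to -4.99 (Sardh) in the Ythdf1 knockout. Of the members' planned repeats, 209 kept their call, 6 lost it and 1 gained it, all 7 of them Asl, and 0 changed direction. The number of members called was 3 in the Usp5 knockout (3 to 4 with single samples left out), 2 in the Ythdf1 knockout throughout, and 4 between the knockouts (3 to 4). Without a filter Cps1 was called between the Usp5 and the Ythdf1 knockout (adjusted p = 0.00296). Of 2700 genes called in the Usp5 knockout, the count was 1305 at an adjusted p under 0.01, 1756 with only the 2 groups compared and 1494 to 4371 with single samples left out (1494 without control replicate 2, 1626 without Usp5 knockout replicate 2, 1736 without control replicate 1 and 4371 without control replicate 3). Leaving out single samples gave 4848 to 6479 genes in the Ythdf1 knockout and 5002 to 7648 between the knockouts, where 4363 passed at 0.01. Samples with the same number did not deviate together (correlations of -0.257 to 0.298 over 9 pairs, 3 of 9 samples closest to their own number), and with a replicate block 2346, 6198 and 6458 genes and 3, 2 and 4 members were called in the Usp5 knockout, in the Ythdf1 knockout and between them. Library sizes alone moved the median of all genes to -0.12 in the Ythdf1 knockout, from 0.02 with TMM. The deposited effective lengths, an alternative added after seeing the data, like the repeats of the list counts, lowered Ass1 to 48.5, 74 and 23.3 TPM and Asl to 41.8, 50.8 and 52.4 TPM in the Usp5 knockout, the Ythdf1 knockout and the controls. Depth limits Cps1, Otc, Arg1, Tdo2 and Hpd, for which only differences above a few counts per library could be seen.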
